A study of Mus musculus with 7 samples.

Results

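The genes of cholesterol synthesis and of its control by sterol regulatory element-binding proteins (SREBPs) were followed in CD11b-sorted cells from experimental glioblastomas. The labels call these cells GBM TAM, that is macrophages of glioblastoma. The 30 genes were chosen by symbol out of the 25571 rows of the count table. All 30 were in the table, and all 30 passed the low-count filter, which kept 15822 rows. The tumours were orthotopic xenografts of T387 glioblastoma cells in the brains of NSG mice, a strain without T, B and NK cells. In the Pracinostat group (4 samples) mice were gavaged with the histone deacetylase inhibitor Pracinostat at 30 mg/kg on 4 occasions a week for 3 weeks from day 7 after implantation. In the DMSO group (3 samples) mice received the solvent, made of DMSO, PEG300, Tween-80 and PBS, without the drug. The labels also give 3 mg/kg for the drug as prepared, which does not match the dose given. Cells positive for CD11b were sorted at the end of the study, and RNA was sequenced. The labels call the samples biological replicates and name neither the animals nor their ages, so p-values measure the spread between these samples.

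Cholesterol is built from acetyl-CoA. Mevalonate is made and converted to isoprenoid units, these are joined to squalene, squalene is closed to lanosterol, and lanosterol is trimmed to cholesterol. When membranes of the endoplasmic reticulum are poor in sterol, SCAP escorts the SREBPs to the Golgi, where a pair of proteases frees the active transcription factor. INSIG proteins hold the complex back when sterol is plentiful. Macrophages make little of the cholesterol they handle, since they take up most of it with engulfed cells and lipoproteins, and sterol intermediates of this pathway also act as signals for the LXR nuclear receptors.

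The libraries held 10142753 to 16950597 counts, 14299098 ± 2920070 with Pracinostat (SD, n = 4) and 13530458 ± 2039553 with DMSO (SD, n = 3; two-sided exact permutation p = 0.714, where the design allows no p under 0.0286). Genes detected numbered 18499 ± 609 with Pracinostat (SD, n = 4) and 16996 ± 937 with DMSO (SD, n = 3; two-sided exact permutation p = 0.0857). The sorted antigen's gene Itgam and the pan-leukocyte gene Ptprc were present in every library, at 1316 to 2574 CPM and 470.8 to 731.1 CPM. Neutrophil markers made up 0.0271% to 0.0459% of counts. In that list Csf3r ran from 270.7 to 410.4 CPM, S100a9 from 0 to 49.3 CPM and Cxcr2 from 0.726 to 44.8 CPM. S100a8 ran from 0.462 to 14.4 CPM, Retnlg from 0 to 7.69 CPM and Ly6g from 0 to 0.850 CPM. The part of neutrophil RNA in the values was not tested. Pracinostat replicate 3 was the most distant from most other libraries. Its chi-square per degree of freedom was 54.6 with Pracinostat replicate 4 and 74.3 to 84.2 with the rest. Pairs without it gave 33.1 to 56.4. The measure is taken on unscaled counts and grows with depth, which differed between libraries. A pair of libraries was rich in collagen transcripts: fibroblast and collagen markers made up 0.0669% of counts in Pracinostat replicate 1 and 0.11% in DMSO replicate 2, against 0.00192% to 0.00619% in the other 5. Levels are CPM, counts scaled to a common library size with TMM factors, and log2 fold changes are Pracinostat minus DMSO from edgeR's quasi-likelihood test, given ± their standard error (SE), with p-values adjusted by the Benjamini-Hochberg method over all 15822 genes.

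No gene of sterol synthesis or SREBP control passed the test between Pracinostat and DMSO. Of the 30 genes, 0 had an edgeR adjusted p under 0.05, and the adjusted p of each was 1 when rounded. This was also the picture over the whole table, where 0% of genes tested were called by edgeR and 0.171% by DESeq2, which called 0 of the 30. At an unadjusted p under 0.05 there was 1 of the 30 by edgeR, Pmvk, against 4.18% of all genes tested. DESeq2 had 1 at that level, and limma-voom, which also called 0, had 2, Acss2 and Pmvk. The fold changes were spread to both sides, 17 positive and 13 negative, with a median of 0.04 on the log2 scale. Over all genes tested 52.3% were positive and the median was 0.02. Pracinostat and DMSO libraries did not overlap for 1 of the 30, Hmgcs1, and for 6.09% of all genes tested.

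**Figure D1:**
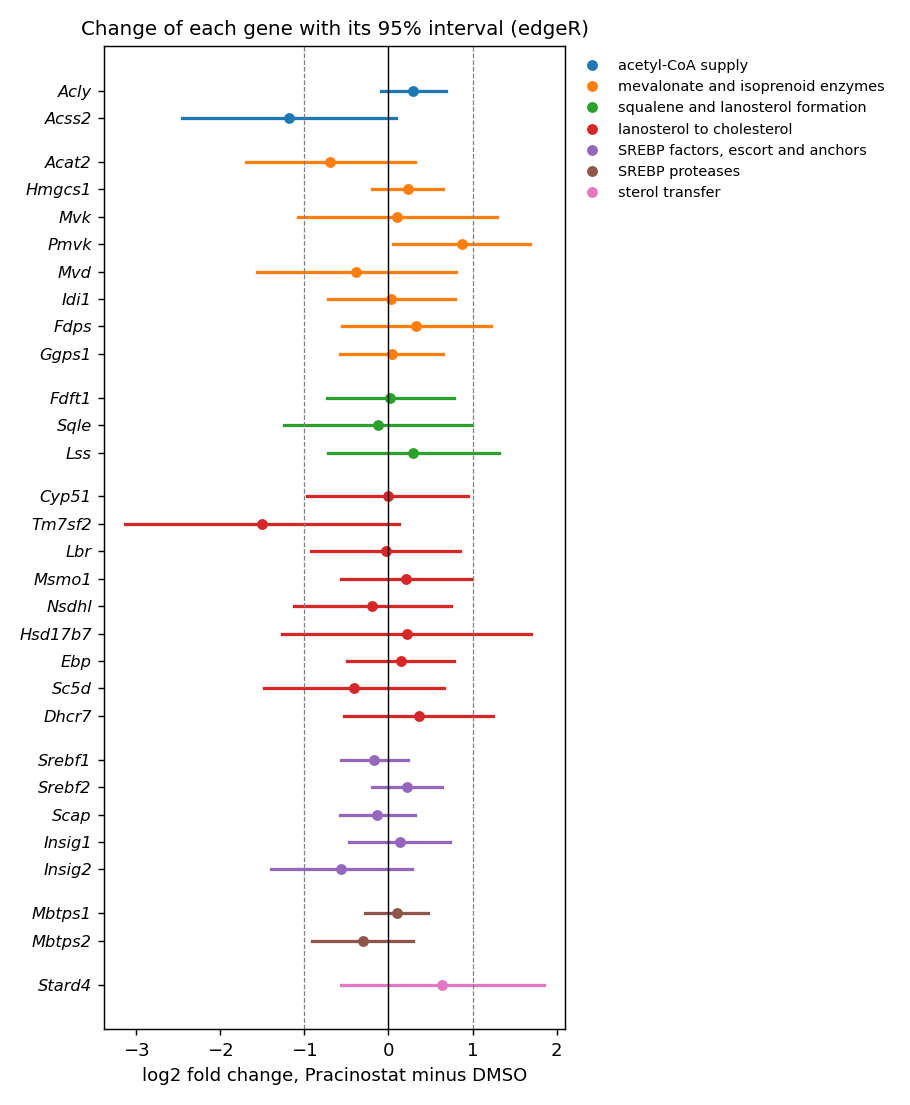
Log2 fold change of each of the 30 genes (x axis, Pracinostat minus DMSO) with its 95% interval from edgeR, grouped and coloured by role, and dashed lines at a fold of 2 in either direction. The interval of Pmvk lies above 0 and those of the other 29 include 0, while 15 stay between the dashed lines.

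The precision differed between genes, and so did the width of the intervals. For 15 of the 30 genes the 95% interval, not adjusted for the number of genes, lay within a 2-fold change in both directions. These were Acly, Hmgcs1, Idi1, Ggps1, Fdft1, Cyp51, Lbr, Msmo1, Ebp, Srebf1, Srebf2, Scap, Insig1, Mbtps1 and Mbtps2. For the other 15 the interval reached past a 2-fold change in at least 1 direction, so the interval alone leaves a change of that size possible. The SE ran from 0.17 to 0.76, with a median of 0.40 for the 30 genes and 0.41 for all genes tested.

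Carbon enters the pathway as cytosolic acetyl-CoA, which ATP citrate lyase (Acly) makes from citrate and acetyl-CoA synthetase (Acss2) from acetate. Acly stood at 245.2, 245.5, 359.6 and 232.8 CPM in Pracinostat replicates 1 to 4, against 245.3, 223.6 and 192.4 CPM in DMSO replicates 1 to 3. Pracinostat replicate 3 was the highest of all, and the rest overlapped. The log2 fold change was 0.30 ± 0.18 with all libraries, and ran from 0.13 without Pracinostat replicate 3 to 0.38 without DMSO replicate 1. Acss2 stood at 6.12, 4.13, 1.06 and 10.6 CPM with Pracinostat and at 14.99, 13.09 and 9.07 CPM with DMSO. Pracinostat replicate 3 was the lowest, at 16 counts, and only Pracinostat replicate 4 reached into the DMSO range. Its log2 fold change was -1.18 ± 0.60, with a 95% interval from -2.46 to 0.09 and an edgeR adjusted p of 1. The value was -0.83 without Pracinostat replicate 3 and -1.73 without Pracinostat replicate 4. Its unadjusted p was under 0.05 by limma-voom, without the low-count filter, without Pracinostat replicate 4 and when replicate numbers entered the fit as a block. Exons of Acss2 overlap those of Gss, Ggt7 and Acss2os on the opposite strand, and the strand setting of the counting is not known.

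The enzymes from acetyl-CoA to the isoprenoid units include the gene with the smallest p of the 30, Pmvk, and the gene whose groups did not overlap, Hmgcs1. Of 8 genes, 6 had positive and 2 negative log2 fold changes, with a median of 0.07. Hmgcs1, the cytosolic synthase that makes HMG-CoA, stood at 52.4, 60.01, 47.5 and 48.4 CPM in Pracinostat replicates 1 to 4 and at 42.3, 47.1 and 44.0 CPM in DMSO replicates 1 to 3. All 4 Pracinostat libraries were above all 3 DMSO libraries, the nearest by less than 1 CPM, and the span over the 7 libraries was 1.42-fold, the narrowest of the 30 genes. The log2 fold change was 0.23 ± 0.20, with an interval from -0.19 to 0.65, so a fold above 1.57 lay outside it. An exon of the gene model Gm48342 overlaps Hmgcs1 on the opposite strand over 12.1% of its exon bases.

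Pmvk, phosphomevalonate kinase, stood at 21.0, 32.3, 12.6 and 18.9 CPM with Pracinostat and at 13.9, 13.7 and 7.14 CPM with DMSO. Pracinostat replicates 1, 2 and 4 were above every DMSO library, and Pracinostat replicate 3 was inside the DMSO range. The log2 fold change of 0.87 ± 0.38 had an interval from 0.06 to 1.69 and an edgeR adjusted p of 1. It was 0.59 without Pracinostat replicate 2 and 1.06 without Pracinostat replicate 3. The unadjusted p of Pmvk was no longer under 0.05 when Pracinostat replicate 1, 2 or 4 or DMSO replicate 3 was left out. The enzymes on either side of Pmvk had smaller fold changes with wider errors, and whether they differ from Pmvk was not tested. Mvk, mevalonate kinase, which acts just before Pmvk, stood at 6.39, 7.29, 11.5 and 3.67 CPM with Pracinostat and at 8.16, 2.79 and 9.13 CPM with DMSO. Mvd, which decarboxylates the product of Pmvk, stood at 3.67, 5.35, 2.97 and 13.03 CPM with Pracinostat and at 7.69, 9.18 and 7.46 CPM with DMSO. The groups overlapped for both, Mvd being lower than every DMSO library in Pracinostat replicates 1, 2 and 3 and highest of all in replicate 4. Their log2 fold changes were 0.11 ± 0.55 for Mvk and -0.38 ± 0.55 for Mvd. The value for Mvd was -1.03 without Pracinostat replicate 4 and between -0.44 and -0.14 when any other single library was left out.

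Acat2, the cytosolic thiolase of the opening step, stood at 6.19, 3.16, 8.91 and 10.6 CPM with Pracinostat and at 11.4, 14.9 and 8.68 CPM with DMSO. Pracinostat replicates 1 and 2 were below the DMSO libraries and the others were within their range, with a log2 fold change of -0.69 ± 0.47. Its near copy Acat3 shares 28.9% of the 100-base stretches of the Acat2 transcripts, so how reads were split between the copies is uncertain. Idi1, the isomerase that balances the isoprenoid units, and Fdps, which joins them to farnesyl diphosphate, had log2 fold changes of 0.04 ± 0.35 and 0.33 ± 0.41. Both were highest in Pracinostat replicate 1, at 20.8 and 23.1 CPM, against 10.2 to 13.1 CPM and 7.92 to 22.1 CPM in the rest of the Pracinostat group and 11.9 to 16.97 CPM and 8.86 to 16.3 CPM with DMSO. Pracinostat replicate 1 is 1 of the collagen-rich libraries and also held the most RNA of oligodendrocyte markers, 0.101% of counts against 0.0189% to 0.0405% in the other 6 libraries. Mbp stood at 546.5 CPM there, against 83.7 to 174.8 CPM elsewhere, and Mog, a defining marker, was at 0 there and in 3 other libraries. The part of this in the values was not tested. When single libraries were left out, the log2 fold change of Idi1 ran from -0.21 without Pracinostat replicate 1 to 0.22 without DMSO replicate 3. Stretches of Idi1 and Fdps transcripts are shared with the gene models Gm13502 (15.8% of 100-base stretches) and Gm43738 (20.5%). Ggps1, which makes geranylgeranyl diphosphate for protein prenylation, was the steadiest across the Pracinostat libraries, at 19.6 ± 1.41 CPM (SD, n = 4), against 19.1 ± 4.69 CPM with DMSO (SD, n = 3), and its log2 fold change was 0.04 ± 0.29.

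**Figure D2:**
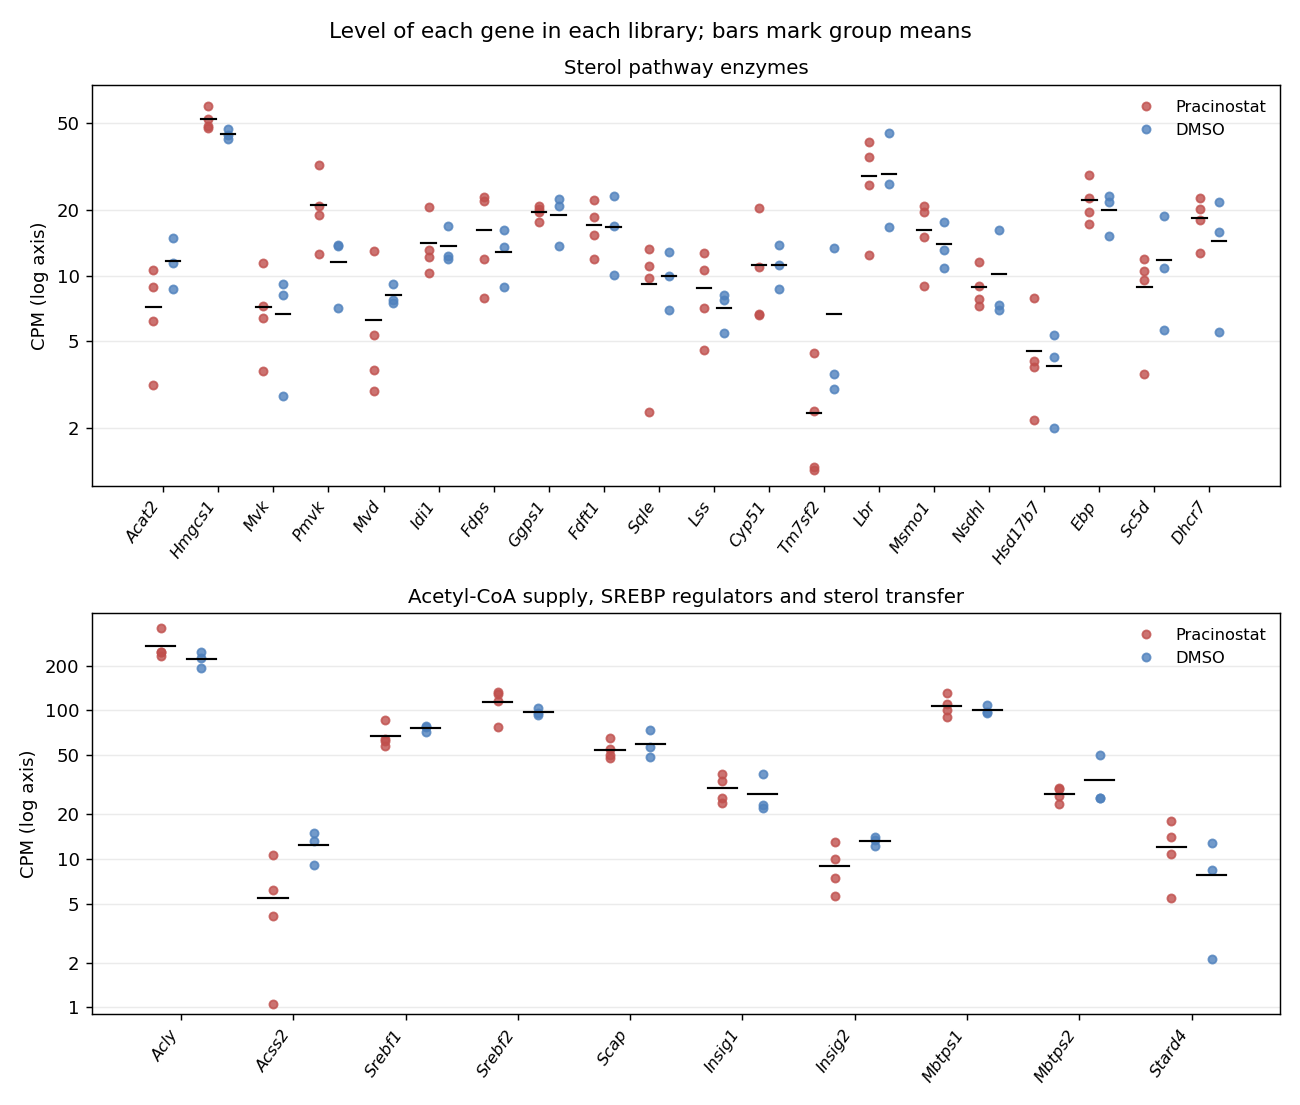
CPM on a log axis in each library for the 20 enzymes from acetyl-CoA to cholesterol (upper panel) and for the 10 genes of acetyl-CoA supply, SREBP control and sterol transfer (lower panel). Points are single libraries, Pracinostat left of DMSO for each gene, and bars are group means; the points overlap for every gene but Hmgcs1.

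Promoter sequence is shown for the gene whose groups did not overlap and for the 3 genes with the smallest p, Pmvk, Acss2 and Tm7sf2, because SREBPs act through short elements near the start of transcription. The windows are from RefSeq on GRCm38.p6, run from 250 bases before to 50 bases after a start, and read 5′ to 3′ on the gene's strand. Hmgcs1 lies at chr13:119690101-119690400, plus strand, Pmvk at chr3:89454291-89454590, plus strand (the 1 of its 2 windows that held a match), Acss2 at chr2:155517793-155518092, plus strand and Tm7sf2 at chr19:6067801-6068100, minus strand. Capitals mark a sterol regulatory element core, written TCACNCCAC, and CCAAT boxes, the site of the SREBP partner NF-Y, both searched on both strands, where CCAAT reads ATTGG on the opposite one.
Hmgcs1: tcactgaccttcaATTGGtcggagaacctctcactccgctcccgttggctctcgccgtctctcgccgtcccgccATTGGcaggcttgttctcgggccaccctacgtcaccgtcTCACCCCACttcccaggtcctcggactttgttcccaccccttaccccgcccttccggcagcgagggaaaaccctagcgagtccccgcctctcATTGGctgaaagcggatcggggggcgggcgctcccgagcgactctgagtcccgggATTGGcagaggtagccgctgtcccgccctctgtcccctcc
Pmvk: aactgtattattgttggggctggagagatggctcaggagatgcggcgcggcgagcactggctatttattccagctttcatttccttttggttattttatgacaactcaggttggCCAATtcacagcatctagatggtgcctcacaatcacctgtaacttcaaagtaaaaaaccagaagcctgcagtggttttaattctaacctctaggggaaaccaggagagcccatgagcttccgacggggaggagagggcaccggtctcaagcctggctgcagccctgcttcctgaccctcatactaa
Acss2: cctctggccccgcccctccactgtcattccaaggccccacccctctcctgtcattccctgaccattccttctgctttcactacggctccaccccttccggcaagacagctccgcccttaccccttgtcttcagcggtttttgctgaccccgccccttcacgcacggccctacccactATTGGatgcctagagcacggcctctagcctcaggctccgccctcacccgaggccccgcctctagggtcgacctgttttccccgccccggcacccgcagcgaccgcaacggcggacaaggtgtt
Tm7sf2: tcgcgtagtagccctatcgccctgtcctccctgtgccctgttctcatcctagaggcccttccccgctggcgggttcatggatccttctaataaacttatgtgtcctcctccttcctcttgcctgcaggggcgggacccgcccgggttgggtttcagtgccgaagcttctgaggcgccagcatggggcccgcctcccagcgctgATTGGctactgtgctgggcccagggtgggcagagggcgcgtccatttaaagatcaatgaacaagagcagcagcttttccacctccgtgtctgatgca

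The Hmgcs1 window held 1 element core, which starts 137 bases before the start of transcription, and 4 CCAAT boxes. The other 3 windows shown held 1 CCAAT box each and no element core. That of Pmvk was chosen for its match, and the other Pmvk window, chr3:89459321-89459620, held 0 of either. Windows were found for 26 of the 30 genes, and those of Fdps, Fdft1, Sqle and Stard4 were not used here. Over 34 windows of the 26 genes, 1 held the element core (2.94%) and 23 held a CCAAT box (67.6%), against 1.24% and 37.4% of 32851 windows of all genes. By gene, 22 of 26 had a CCAAT box and 13 had 2 or more matches; the 4 without were Acat2, Mbtps1, Mbtps2 and Scap. A match of letters is a description and not a bound site. Only exact matches to TCACNCCAC were counted, so a window without one may still hold an element of other letters.

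Squalene and lanosterol formation is the committed branch towards sterols, and its 3 genes had a median log2 fold change of 0.03. Fdft1, squalene synthase, had a log2 fold change of 0.03 ± 0.35. Exons of the cathepsin gene Ctsb overlap Fdft1 on the opposite strand over 18.3% of its exon bases, so its counts are uncertain. Sqle, squalene epoxidase and a rate-controlling step of the pathway, stood at 13.3, 11.1, 2.38 and 9.75 CPM with Pracinostat and at 6.98, 9.98 and 12.8 CPM with DMSO. Pracinostat replicate 3 was the lowest library by a wide margin, at 36 counts, and the other Pracinostat libraries lay in or just above the DMSO range. The log2 fold change was -0.12 ± 0.52 with all libraries, and ran from -0.35 without Pracinostat replicate 1 to 0.19 without Pracinostat replicate 3. Lss, lanosterol synthase, had a log2 fold change of 0.30 ± 0.47, and it was highest in Pracinostat replicate 3 at 12.7 CPM, against 4.56 to 10.6 CPM in the rest of the Pracinostat group and 5.47 to 8.14 CPM with DMSO.

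Of the 9 enzymes that turn lanosterol into cholesterol, 4 had positive and 5 negative log2 fold changes, with a median of -0.01. Tm7sf2 and Lbr both encode sterol C14 reductases, Lbr doubling as a receptor of the nuclear lamina. Tm7sf2 stood at 2.38, 1.28, 1.32 and 4.44 CPM with Pracinostat and at 13.3, 3.03 and 3.54 CPM with DMSO. DMSO replicate 1 was far above the rest, and Pracinostat replicate 4 was above the remaining DMSO libraries. The log2 fold change was -1.50 ± 0.76, with an interval from -3.13 to 0.13 and an edgeR adjusted p of 1, and it ran from -2.01 without Pracinostat replicate 4 to -0.48 without DMSO replicate 1. Its unadjusted p was under 0.05 when DMSO replicate 2, DMSO replicate 3 or Pracinostat replicate 4 was left out. Part of the Tm7sf2 exons is shared with Vps51 on the same strand. Lbr stood at 26.0, 40.9, 12.5 and 35.03 CPM with Pracinostat and at 45.0, 26.3 and 16.7 CPM with DMSO, a wide spread in both groups, with a log2 fold change of -0.03 ± 0.41. The other 7 enzymes of these steps had log2 fold changes between -0.41 and 0.36.

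The step that follows lanosterol is the demethylation by Cyp51, which had a log2 fold change of -0.01 ± 0.45. Its highest library was Pracinostat replicate 2 at 20.4 CPM, against 6.60 to 10.95 CPM in the rest of the Pracinostat group and 8.70 to 13.8 CPM with DMSO. Msmo1 and Nsdhl, which act together in removing the C4 methyl groups, stood at 16.1 ± 5.37 and 8.89 ± 1.93 CPM with Pracinostat (SD, n = 4) and at 13.9 ± 3.46 and 10.2 ± 5.21 CPM with DMSO (SD, n = 3). Hsd17b7, the ketoreductase of the same complex, was the lowest of the 30 genes per exon length. Its log2 fold change of 0.22 ± 0.69 had an interval from -1.26 to 1.70. Ebp, the sterol isomerase, was at 0.15 ± 0.29 on the log2 scale. Sc5d, the desaturase that follows Ebp, was at -0.41 ± 0.50, with 3.52 to 11.97 CPM in the Pracinostat libraries and 5.65 to 18.8 CPM with DMSO. Dhcr7, which makes cholesterol from 7-dehydrocholesterol, was at 0.36 ± 0.41, with 12.8 to 22.8 CPM in the Pracinostat libraries and 5.51 to 21.7 CPM with DMSO. The groups overlapped for each of these enzymes.

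The transcription factors were among the genes with the most counts and the smallest errors. Srebf2, which encodes the SREBP known for driving cholesterol synthesis, stood at 115.9, 133.0, 76.9 and 128.0 CPM in Pracinostat replicates 1 to 4, against 95.7, 103.6 and 93.2 CPM in DMSO replicates 1 to 3. Pracinostat replicates 1, 2 and 4 were above every DMSO library and replicate 3 was below all of them. The log2 fold change was 0.22 ± 0.20 with all libraries, and ran from 0.13 without Pracinostat replicate 2 to 0.37 without Pracinostat replicate 3. Srebf1, which encodes the SREBP forms known for fatty acid genes and for the LXR response, showed the opposite arrangement. It stood at 64.4, 62.0, 85.7 and 57.3 CPM with Pracinostat and at 70.9, 77.4 and 78.3 CPM with DMSO. Pracinostat replicates 1, 2 and 4 were below every DMSO library and replicate 3 was above all of them, with a log2 fold change of -0.17 ± 0.19, which ran from -0.30 without Pracinostat replicate 3 to -0.11 without Pracinostat replicate 4. Neither passed after adjustment in any of the fits run.

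Scap, the escort, and the INSIG anchors did not pass either. Scap had a log2 fold change of -0.13 ± 0.21, and 13.2% of its exon bases overlap the model 5830462I19Rik on the opposite strand. Insig1, itself a known SREBP target, stood at 37.3, 33.6, 25.7 and 23.8 CPM with Pracinostat and at 23.1, 37.3 and 22.1 CPM with DMSO. Pracinostat replicate 1 and DMSO replicate 2 were equally high, the groups overlapped, and the log2 fold change was 0.13 ± 0.28. Insig2, its paralog with the same role, stood at 7.41, 5.59, 13 and 9.94 CPM with Pracinostat and at 14.0, 13.5 and 12.3 CPM with DMSO. Pracinostat replicates 1, 2 and 4 were below the DMSO libraries and replicate 3 was within them, with a log2 fold change of -0.56 ± 0.39 and an interval from -1.40 to 0.28. The difference between the paralogs was not tested. Among the proteases that free the SREBPs, Mbtps1 (site-1 protease) was at 107.7 ± 17.4 CPM with Pracinostat (SD, n = 4) and 100.6 ± 6.70 CPM with DMSO (SD, n = 3), with the narrowest error of the 30, 0.10 ± 0.17. Mbtps2 (site-2 protease) was at -0.31 ± 0.28, with DMSO replicate 2 at 50.2 CPM, against 23.5 to 30.2 CPM with Pracinostat and 25.8 CPM in each of the other DMSO libraries. Its log2 fold change ran from -0.47 without DMSO replicate 3 to 0.09 without DMSO replicate 2. Of its 100-base transcript stretches, 27% are shared with Yy2 on the same strand.

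Stard4, a soluble sterol transfer protein known as an SREBP target, followed Tm7sf2, Acss2, Pmvk and Acat2 in the size of its log2 fold change. It stood at 10.8, 17.9, 5.48 and 14.0 CPM with Pracinostat and at 12.7, 8.38 and 2.12 CPM with DMSO. DMSO replicate 3 was the lowest, at 33 counts, the groups overlapped, and the log2 fold change was 0.64 ± 0.56. When single libraries were left out it ran from 0.19 without DMSO replicate 3 to 1.203 without DMSO replicate 1.

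The libraries did not move through the pathway as a block. For a score, each gene's log2 CPM was centred on its mean over the 7 libraries and averaged over the 30 genes. The score was 0.04, -0.03, -0.23 and 0.11 in Pracinostat replicates 1 to 4, against 0.15, 0.03 and -0.06 in DMSO replicates 1 to 3. The lowest was Pracinostat replicate 3 and the highest DMSO replicate 1, and the groups overlapped. Over the 435 pairs of the 30 genes, the median Pearson r across the 7 libraries was -0.0064 and 4.37% of pairs had r over 0.7. Over all pairs of the 15822 genes the median was 0 and 4.76% had r over 0.7. These are descriptions over libraries that share depth and scaling. Within roles the median r was -0.11 for the mevalonate and isoprenoid enzymes, 0.19 for the 3 genes of squalene and lanosterol formation, 0.06 for the lanosterol to cholesterol enzymes and 0.01 for the SREBP factors, escort and anchors.

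Pracinostat replicate 3 was an extreme for 15 of the 30 genes. It was the lowest library for 9 genes, Acss2, Mvd, Fdps, Sqle, Cyp51, Lbr, Msmo1, Srebf2 and Mbtps2, that is 30% of them, where it was the lowest for 14.4% of all genes tested. It was the highest for 6, Acly, Mvk, Lss, Hsd17b7, Srebf1 and Mbtps1, or 20%, against 16.9% of all genes tested. Macrophage and microglia markers made up 1.43% of its counts, against 1.00% to 1.08% in the rest of the Pracinostat group and 0.964% to 1.13% with DMSO, but the list did not move one way. Among the genes of the list reported here, Itgam (2574 CPM), Csf1r, Aif1, Cx3cr1 and C1qa were at their highest of the 7 libraries there, Cd68 (844.7 CPM) and Tyrobp (146.2 CPM) were at their lowest, and Ptprc, Adgre1 and Fcgr1 lay in between. The part of this in the values was not tested, and in bulk RNA fewer cells of a type and less RNA per cell cannot be told apart. Without this library 2 of the 30 genes, Pmvk and Srebf2, had an unadjusted p under 0.05 by edgeR, against 4.1% of all genes tested in that fit, and 0 passed after adjustment. Without both collagen-rich libraries 0 of the 30 had an unadjusted p under 0.05, against 4.56% of all genes tested.

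**Figure D3:**
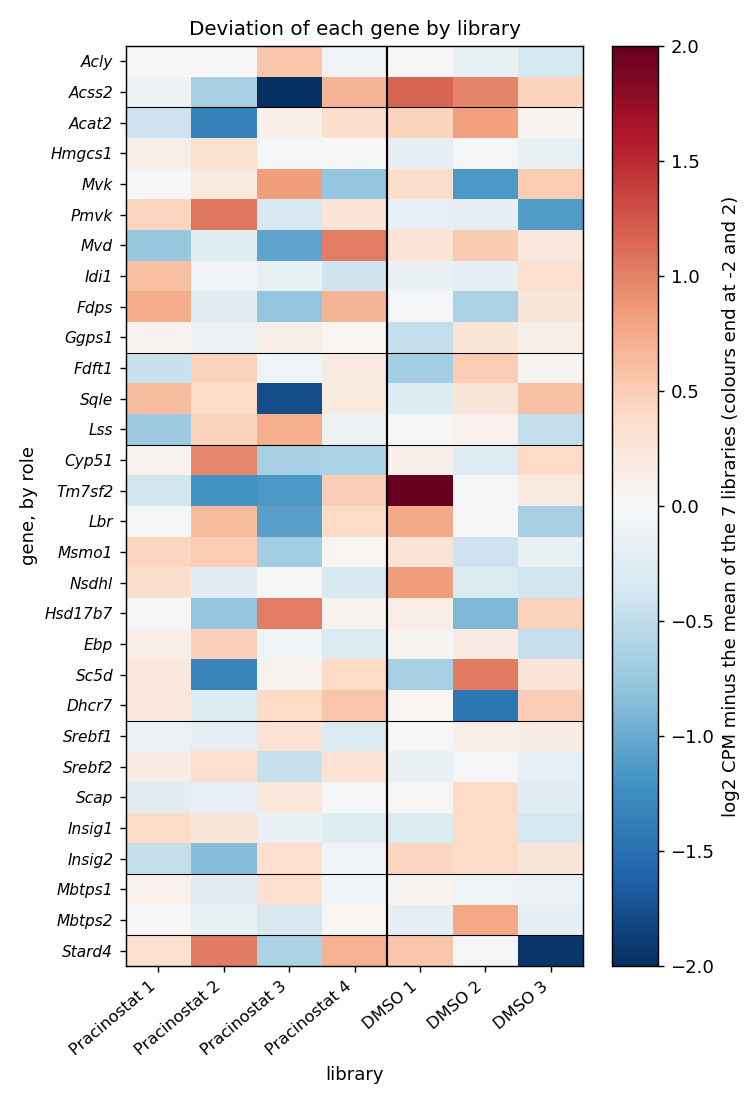
Deviation of log2 CPM from each gene's 7-library mean, for the 30 genes in rows by role and the libraries in columns, Pracinostat left of the vertical line and DMSO right of it. The score over all genes was lowest in Pracinostat replicate 3 (-0.23), whose column holds both dark blue cells such as Sqle and red cells such as Hsd17b7, and no column is of a single colour.

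Levels between genes were set side by side as CPM per kilobase of exons. Acly was the most abundant, at 58.7 ± 12.9 CPM per kb with Pracinostat (SD, n = 4) and 47.8 ± 5.77 CPM per kb with DMSO (SD, n = 3). Mbtps1 followed, at 24.8 ± 4.02 and 23.2 ± 1.54 CPM per kb, then Srebf2 at 22.3 ± 5.00 and 19.2 ± 1.07 CPM per kb and Srebf1 at 15.7 ± 2.92 and 17.6 ± 0.936 CPM per kb, Pracinostat before DMSO each time. The same 4 genes led in both groups. Among the enzymes after acetyl-CoA the highest was Hmgcs1, at 15 ± 1.64 CPM per kb with Pracinostat and 12.8 ± 0.698 CPM per kb with DMSO. Lss, Stard4 and Hsd17b7 were at the low end with DMSO, at 1.53, 1.49 and 0.764 CPM per kb. In the order of DMSO means only 2 of the 29 neighbouring pairs stood apart by more than their SD, Acly from Mbtps1 and Mbtps1 from Srebf2. Exon lengths came from another annotation release than the counting used, so small steps in this order are not reliable.

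**Figure D4:**
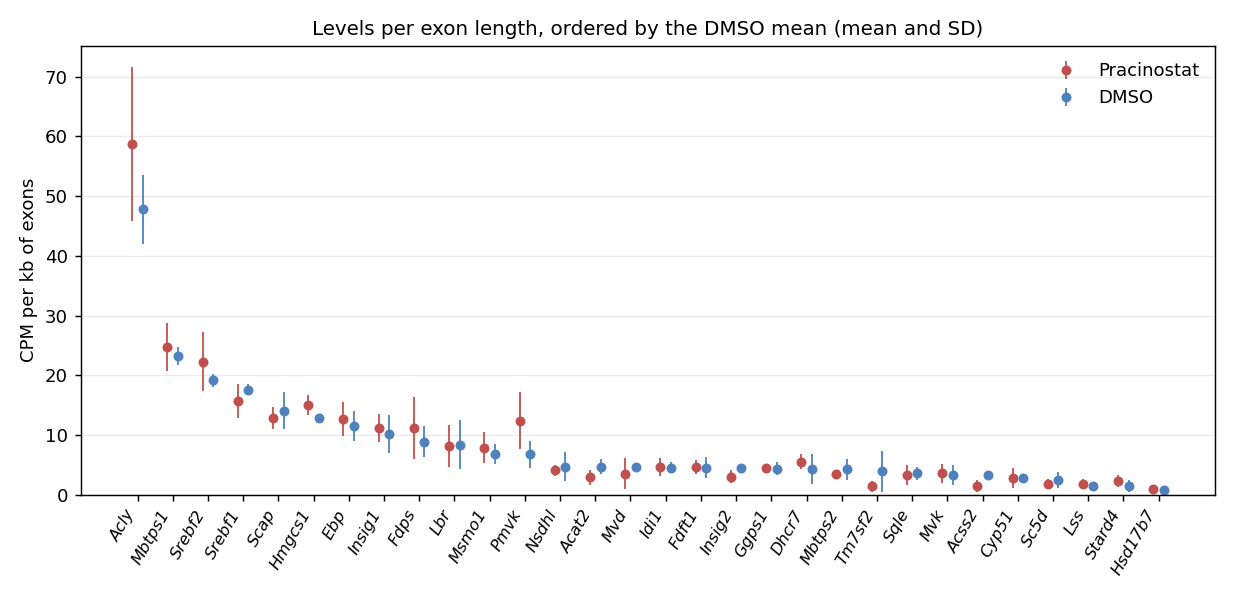
Mean CPM per kilobase of exons with its SD (y axis) for the 30 genes in the order of the DMSO mean, Pracinostat (n = 4) left of DMSO (n = 3) for each gene. Acly leads at 58.7 and 47.8, Mbtps1, Srebf2 and Srebf1 follow, and from Nsdhl on the DMSO means lie under 5.

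Genes around the pathway were examined in 3 lists of other SREBP or sterol genes, and 0 of their tested members passed. In the list of fatty acid genes driven by SREBP-1, 9 of 17 were positive with a median of 0.07. By edgeR 2 had an unadjusted p under 0.05, both higher. Over all 15822 genes tested 661 did (4.18%), 444 of them higher and 217 lower. The 2 fatty acid genes were Acaca, acetyl-CoA carboxylase, at 0.70 ± 0.24, and Fasn, fatty acid synthase, at 0.42 ± 0.19. Acaca stood at 144.6, 153.3, 167.8 and 85.8 CPM with Pracinostat and at 101.9, 62.5 and 90.0 CPM with DMSO, with Pracinostat replicate 4 inside the DMSO range. Its adjusted p was 1 by edgeR and 0.453 by DESeq2, and ran from 0.102 to 1 over all alternatives. Fasn stood at 95.4, 123.2, 140.5 and 86.8 CPM with Pracinostat and at 89.6, 79.7 and 80.0 CPM with DMSO, again with Pracinostat replicate 4 inside the DMSO range. In the list of sterol sensing, oxysterol and esterification genes, 12 of 22 tested were positive with a median of 0.05. By edgeR with all libraries, 0 of the 22 had an unadjusted p under 0.05. The smallest p values there were for Nr1h3, which encodes the sterol receptor LXR alpha, at -1.03 ± 0.49, and Erlin2, a partner of INSIG in sterol-dependent degradation, at 0.42 ± 0.20. Nr1h3 stood at 19.1, 11.1, 3.30 and 5.31 CPM with Pracinostat and at 21.4, 19.7 and 18.6 CPM with DMSO, where only Pracinostat replicate 1 reached the DMSO range. Its unadjusted p was 0.0543 by edgeR and 0.0518 by DESeq2. Fits that gave Nr1h3 an unadjusted p under 0.05 included limma-voom, RLE scaling and the fit without the low-count filter. The replicate block and leaving out both collagen-rich libraries did so too. In the list of isoprenoid use, 6 of 16 were positive with a median of -0.07, and 0 had an unadjusted p under 0.05. The smallest p values were for Pggt1b, a subunit of an enzyme that prenylates proteins, at -0.48 ± 0.27, and Pdss1, which makes the side chain of ubiquinone, at 1.18 ± 0.69. Pdss1 was low, at 5.23 ± 2.02 CPM with Pracinostat (SD, n = 4) and 2.30 ± 0.51 CPM with DMSO (SD, n = 3), and its groups did not overlap. Those of Erlin2 did not overlap either, at 55.64 to 75.37 CPM with Pracinostat and 38.45 to 55.56 CPM with DMSO. Each was the 1 such gene of its list, where 6.09% of all genes tested had no overlap.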

How the data were processed

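RNA of CD11b-sorted cells from 4 Pracinostat and 3 DMSO samples was made into stranded total RNA libraries from 1 ng of RNA and sequenced as paired 150-base reads over 2 lanes, per the labels' protocols. The authors deposited expected counts per gene symbol, stored as whole numbers and not normalized. Per the submitters' processing notes, STAR, RSEM, Trim Galore, DESeq2, FastQC and MultiQC are named, with the build GRCm39. No version, annotation or strand setting is given in the sources used here.

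Counts were tested in R 4.3.3 with edgeR 4.0.16, as a robust quasi-likelihood fit over all 7 libraries with TMM scaling and filterByExpr (minimum count 10). Tests were two-sided and adjusted over the 15822 genes kept, with a threshold of 0.05. The code was checked on simulated counts. DESeq2 1.42.0, limma-voom (limma 3.58.1), RLE scaling, other filters, the replicate number as a block and leaving out libraries were the alternatives. Log2 CPM used a prior count of 2.

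The 30 genes and all lists were chosen with earlier results of these data known. Named genes were all 30 and, of each list of other pathway genes, the 2 with the smallest p, with Itgam and Ptprc and the most abundant gene of a marker class; Mog and the other macrophage markers were named after their values were seen, and 1 marker is not reported here. Exon lengths, exon overlaps and shared 100-base stretches came from GENCODE M21 and promoters from RefSeq, both on GRCm38, which is not the build of the counts, so no position was joined to the counts.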

Additional observations from a re-analysis of the deposited data

Results flagged for a closer look

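Of 44 values screened in the 4 Pracinostat libraries (the 30 genes, 6 genes of other lists and 8 scores), 1 had a library whose distance to the nearest other took up more of the group's range than Dixon's 95% limit allows. This was Acly, at 359.6 CPM in Pracinostat replicate 3, against 232.8 to 245.5 CPM in the rest of the Pracinostat group and 192.4 to 245.3 CPM with DMSO. Chance marks about 1 in 20 such groups, and groups of 3 libraries were not screened.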

How the results depend on the processing

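No alternative called any of the 30 genes, the smallest adjusted p being 0.618 (without the low-count filter). The count of called genes over the whole table, 0, was 63 with no low-count filter, 27 with DESeq2, 4 with the replicate block and 0 to 3 when single libraries were left out, the 3 without DMSO replicate 3. RLE scaling, the stricter filter, limma-voom and leaving out both collagen-rich libraries gave 0.

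For 12 of the 30 genes the log2 fold change kept its sign in all 14 alternatives; the cause of the other sign changes was not tested. They came from leaving out libraries or from the block. With the replicate block, where Pracinostat replicate 4 has no partner and drops out, Cyp51 was at 0.027 and Fdft1 at -0.002. Same-numbered samples had correlations of 0.0445, -0.0352 and 0.0728, against -0.074 to 0.0511 for samples of unlike number. The labels do not state that the numbers pair samples, so they were not taken to do so. Without both collagen-rich libraries the values were -0.008 for Dhcr7, -0.083 for Fdps, -0.014 for Hsd17b7, -0.297 for Idi1, 0.06 for Mbtps2, -0.034 for Msmo1, -0.2 for Mvk, 0.018 for Sc5d and 0.117 for Scap. Leaving out single libraries gave -0.259 to 0.396 for Mvk, -0.206 to 0.218 for Idi1, -0.147 to 0.178 for Ggps1, -0.232 to 0.33 for Fdft1, -0.354 to 0.194 for Sqle, -0.48 to 0.176 for Cyp51, -0.318 to 0.418 for Lbr, -0.403 to 0.319 for Nsdhl and -0.205 to 0.525 for Hsd17b7. It gave -0.021 to 0.267 for Ebp, -0.738 to 0.1 for Sc5d, -0.027 to 0.786 for Dhcr7, -0.263 to 0.053 for Scap, -0.002 to 0.415 for Insig1, -0.009 to 0.173 for Mbtps1 and -0.469 to 0.09 for Mbtps2. Total-count scaling moved all 60 group means by less than 1 SD. Depth limits genes such as Acss2 and Tm7sf2, with 16 and 20 counts in their lowest library.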
